A study of Mus musculus with 18 samples.

Results

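The 6 sham samples of the series were the lumbar dorsal root ganglia (DRG) of 3 male and 3 female mice, out of 18 mice in all, and they were taken because their labels name sham surgery as the treatment. The deposited table names its columns for these samples Con, with the sex and a number, and does not use the word sham. They were matched to the sham titles by sex and number, since the other groups all had a fracture, so the match is an inference. By the study's methods the mice were adults of the CD1 strain, an outbred stock in which animals differ in their alleles. Libraries were stranded, were made from RNA purified by its poly(A) tail, and came from the ganglia at levels L3–L5. The libraries of a group are as many as the mice that the study describes for it, so each library is taken as a separate mouse. None of the 6 had a fracture or received the lipid mediator PDX. The day of collection, the details of the sham operation and whether ganglia of both sides were pooled are not given for these mice in the sources used here. Mice are named M1, M2, M3 (males) and F1, F2, F3 (females), and series of 6 values below follow that order.

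DRG hold the cell bodies of the sensory neurons that carry touch, position, temperature, itch and pain from the body to the spinal cord. Each cell body is wrapped by satellite glia, the axons are sheathed by Schwann cells, and vessels, fibroblasts and macrophages fill the space between them. The neurons are commonly sorted into peptidergic and nonpeptidergic nociceptors, unmyelinated and myelinated mechanoreceptors, cold-sensing neurons and proprioceptors. A bulk sample mixes all of these, so fewer cells of a type and less RNA per cell cannot be told apart in any value that follows.

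Between 69515456 and 80335243 reads per mouse were counted on genes. Levels of different genes were set side by side in FPKM (fragments mapped to a transcript, scaled by its length and by the mapped fragments of the library). Of 36737 genes in the table, 13461 had a mean of at least 1 FPKM, 4588 of at least 10, and 330 of at least 100, while 3851 had no read in any of the 6 mice. Spread between mice was given as the SD as a percent of the mean FPKM (the coefficient of variation, CV) and as edgeR's biological coefficient of variation (BCV), which is fitted to the counts and leaves counting error out. Over the 13405 genes at 1 FPKM or more that passed the filter on low counts, the median CV was 7.64% (quartiles 5.02% and 12.7%), and 160 genes (1.19%) had a BCV over 0.5. The tissue label held against its markers. All 16 markers of sensory neuron identity were above 12 FPKM in mean, whereas 10 markers of spinal cord summed to between 1.37 and 2.15 FPKM, with *Chat*, *Olig2* and *Mnx1* each listed at 0 in 5 of the 6 mice. *Xist* stood at 0.40 to 0.66 FPKM in the males and 10.7 to 13.0 FPKM in the females, and *Ddx3y* at 9.75 to 11.1 FPKM in the males and 0.42 to 0.52 FPKM in the females, so every library matched the sex on its label. Among the summed gene groups below, single libraries stood apart in some. These were F2 for skeletal muscle, F3 for fat and endothelium, F1 for B-cell precursors and M1 for proprioceptor genes. Libraries also stood apart for single genes outside these groups, most often M1, with 190 of the 13405 genes, and least often M3, with 50.

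The most abundant transcripts came from mitochondria, myelin and the neuronal cytoskeleton. The 20 most abundant genes took 18.4% ± 0.865 (SD, n = 6) of the summed FPKM. Of these 20, 10 were encoded by the mitochondrial genome, led by *mt-Co1*, a subunit of cytochrome c oxidase, at 7509.9 ± 567 FPKM. Among the 20 were also the nuclear genes *Tuba1a*, an alpha tubulin, at 1786 ± 138 FPKM, *Nefl*, the light neurofilament, at 1568 ± 68.0 FPKM, and *Pmp22*, a myelin protein, at 1472 ± 430.3 FPKM. Just below the 20 stood *Tubb3*, the neuronal beta tubulin, at 1198 ± 47.0 FPKM, *Apoe*, a lipid carrier made by satellite glia, at 1159 ± 99.4 FPKM, and *Uchl1*, a neuronal ubiquitin hydrolase, at 1079 ± 38.4 FPKM. The 37 genes of the mitochondrial genome together took between 11.2% and 12.5% of the summed FPKM.

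**Figure D1:**
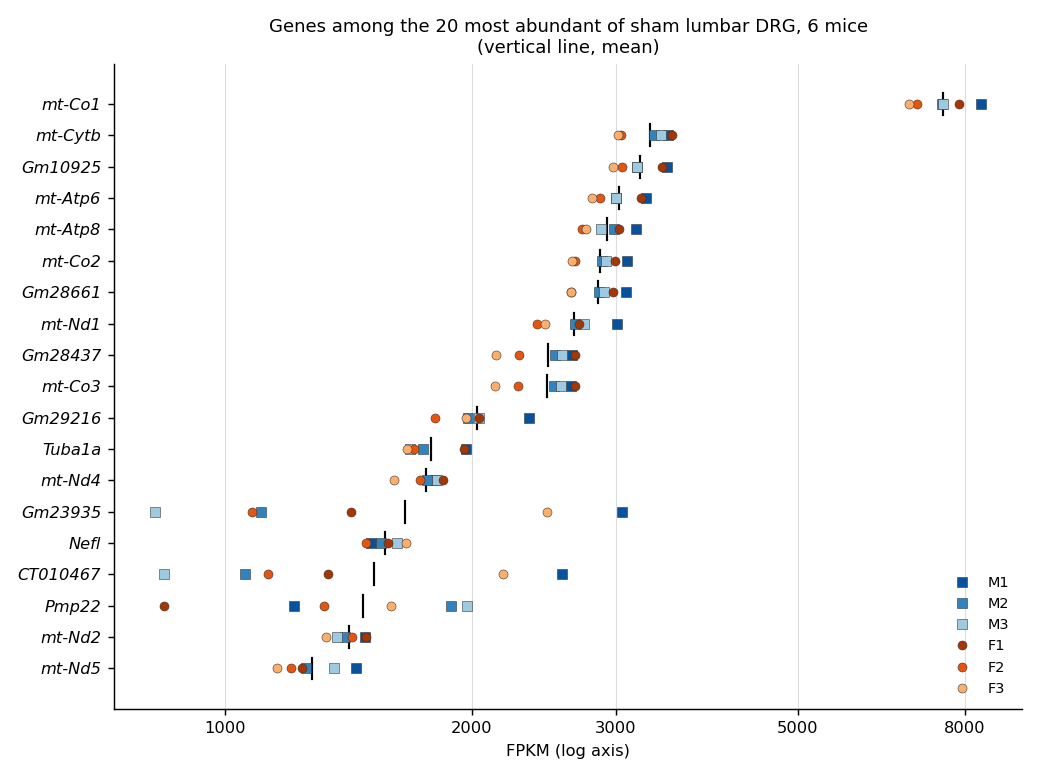
FPKM (log axis) of genes among the 20 with the highest mean in sham DRG, with 1 point per mouse (squares, males; circles, females) and a vertical line at the mean. The myelin gene Pmp22 and the entries Gm23935 and CT010467 spread widely between mice, while the neurofilament gene Nefl and the mitochondrial genes lie close together.

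A further 4 of the 20 were pseudogenes on chromosome 1 that lie within 24613189 to 24616197 (mm10) and copy a stretch of the mitochondrial genome. *Gm10925* was identical to *mt-Atp6*, a subunit of ATP synthase, over all 678 bases aligned, *Gm28661* to *mt-Co2* over 681 bases and *Gm28437* to *mt-Co3* over 783 bases. *Gm29216* differed from *mt-Co1* at 1 of 483 bases. The first 120 bases of the transcripts in the GENCODE set for this build are shown for 1 such pair because the letters themselves decide which gene a read can be assigned to.

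mt-Atp6: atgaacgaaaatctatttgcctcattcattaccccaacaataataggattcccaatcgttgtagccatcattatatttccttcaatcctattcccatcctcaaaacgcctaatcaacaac
Gm10925: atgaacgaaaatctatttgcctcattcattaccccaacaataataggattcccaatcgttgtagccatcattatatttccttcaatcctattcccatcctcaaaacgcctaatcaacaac

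Capitals would mark bases that differ, and there are 0 in this window. In the 6 mice *Gm10925* had between 1.0557 and 1.0581 times the counts of *mt-Atp6*. *Gm28437* had between 0.9999 and 1.0027 times the counts of *mt-Co3*, *Gm28661* between 0.985 and 0.994 times those of *mt-Co2*, and *Gm10222* between 0.996 and 1.01 times those of *mt-Nd4l*. The counts of these 4 copies were thus close to those of the gene each repeats in every mouse. The other 2 copies had fewer counts than their genes, with *Gm29216* at 0.0823 to 0.0917 times those of *mt-Co1* and *Gm28439* at 0.424 to 0.447 times those of *mt-Nd4*. The 6 chromosome 1 copies among the 100 most abundant genes took between 4.37% and 4.81% of the summed FPKM, and levels of genes and copies are uncertain where reads can be assigned to either. Without the mitochondrial genes and these copies, the 20 most abundant remaining genes took 9.94% ± 0.773 (SD, n = 6). *Gm23935*, annotated as a miRNA, and *CT010467*, annotated as ribosomal RNA, ranked 15th and 17th and were both highest in M1 and F3 and lowest in M3. *CT010467* read 2577, 1059, 843, 1334, 1129 and 2187 FPKM in the 6 mice, although the libraries were made from poly(A)-selected RNA.

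Genes that define sensory neurons were abundant and steady. The 16 members of the pan-neuronal list summed to 4889.8 ± 203 FPKM, a CV of 4.15%, with a range from 4702 in M2 to 5222 in M1. The median CV of the 16 genes was 5.38%, against 7.64% over all genes. *Sncg*, gamma-synuclein, stood at 955 ± 75.3 FPKM, *Prph*, the intermediate filament of small neurons, at 702 ± 35.7 FPKM, and *Avil*, an actin-binding protein of sensory neurons, at 211 ± 5.87 FPKM. The transcription factors that specify sensory neurons were lower, with *Pou4f1* at 34.8 ± 1.41 FPKM, *Prrxl1* at 19.9 ± 1.75 FPKM and *Isl1* at 12.6 ± 1.42 FPKM. The 7 genes of myelinated large neurons, among them *Nefl*, *Nefm* and *Nefh*, summed to 3291 ± 131 FPKM with a CV of 3.99%.

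The peptidergic nociceptor list was led by 1 gene. *Calca*, which encodes the peptide CGRP (chromosome 7, 114631478 to 114636357), read 487, 422, 444, 493, 456 and 453 FPKM, a mean of 459 ± 26.7 FPKM and 61.9% of the list's summed level. *Calcb* stood at 64.4 ± 9.835 FPKM and *Tac1*, the precursor of substance P, at 50.8 ± 9.80 FPKM. *Trpv1*, the capsaicin and heat receptor, read 32.45, 24.4, 24.2, 34.5, 33.5 and 22.7 FPKM. Its values fell into a higher set of M1, F1 and F2 and a lower set of M2, M3 and F3, with no value between 24.4 and 32.45 FPKM. Sums over the 10 genes ranged from 680.5 to 807 FPKM (CV 7.04%), while the median CV of single genes was 16.1% against 7.64% over all genes, and the lowest member was *Bmpr1b* at 0.863 ± 0.125 FPKM.

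The nonpeptidergic nociceptor list held the only genes of the 9 neuronal lists with a BCV over 0.5. The 15 genes summed to 494 ± 27.2 FPKM (CV 5.51%, and 3.64% without F2). *Ret*, the signalling receptor of the GDNF family, led at 104 ± 3.42 FPKM, followed by *Cd55* at 68.3 ± 4.87 FPKM, the sodium channel gene *Scn11a* at 60.2 ± 4.06 FPKM, *P2rx3*, the ATP-gated channel, at 55.3 ± 2.55 FPKM and *Mrgprd*, the receptor that defines one class of these neurons, at 52.1 ± 5.97 FPKM. By contrast, 2 of the 15 genes had a BCV over 0.5, against 1.19% of all genes. *Tmem45b*, a membrane protein, read 12.1, 19.4, 18.5, 20.7, 2.90 and 9.64 FPKM, 7.13 times higher in F1 than in F2. *Mrgprb5*, of the Mas-related receptor family, read 7.50, 12.4, 11.0, 1.69, 13.1 and 8.78 FPKM, lowest in F1. *Mrgprb4*, a receptor of neurons that respond to stroking of hairy skin, read 2.20, 0.230, 0.190, 2.80, 0.0600 and 3.01 FPKM. The values of M1, F1 and F3 and those of M2, M3 and F2 did not overlap, and the counts ranged from 7 in the lowest mouse to 291 in the highest. *Mrgprb4* did not pass the filter on low counts, so no BCV was fitted. The itch receptor *Mrgpra3* was less extreme, at 5.85 to 15.2 FPKM.

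The smaller neuron classes gave lower sums. The itch neurons marked by *Sst* and *Nppb* had 7 genes that summed to 27.2 ± 3.61 FPKM, with *Nppb*, the itch peptide precursor, at 6.48 ± 1.25 FPKM and *Sst*, somatostatin, at 6.46 ± 1.28 FPKM. *Nts*, neurotensin, ranged from 1.07 FPKM in F1 to 5.53 FPKM in M3. The C-low-threshold mechanoreceptor list was carried by *Th*, tyrosine hydroxylase, at 72.6% of its sum. *Th* read 52.4, 32.1, 34.0, 36.5, 32.5 and 25.8 FPKM, highest in M1, and the CV of the list was 20.2% with M1 and 10% without it. *Trpm8*, the menthol and cold receptor, made up 79.3% of the cold-sensing list and ranged from 7.28 to 10.3 FPKM.

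The 7 genes of A-fiber mechanoreceptors summed to 54.8 ± 2.25 FPKM (CV 4.10%, and 2.26% without M3). The single genes were less steady than the sum, with a median CV of 13.57% against 7.64% over all genes. *Piezo2*, the touch channel, led that list at 19.15 ± 1.15 FPKM, followed by *Ntrk2*, the receptor TrkB, at 10.1 ± 0.455 FPKM. The 7 proprioceptor genes summed to 178, 298, 269.9, 278, 264 and 308 FPKM, so M1 stood below the other 5 mice. *Spp1*, osteopontin, made up 50.75% of the mean sum and read 72.4, 176, 141, 152, 109.6 and 159 FPKM. *Pvalb*, parvalbumin, read 49.6, 60.8, 64.6, 61.65, 91.1 and 78.5 FPKM. In M1, 6 of the 7 genes were at their lowest, the exception being *Runx3*, which is lowest in F3. Without M1 the CV of the list was 6.61% in place of 17.4%. M1 was also the highest mouse for 3 of the 4 C-low-threshold genes at 1 FPKM or more and for 7 of the 16 pan-neuronal genes. It was likewise highest for 7 of the 13 mitochondrially encoded protein genes, so such counts were not limited to neuron classes. How many of all genes were highest in M1 was not counted.

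**Figure D2:**
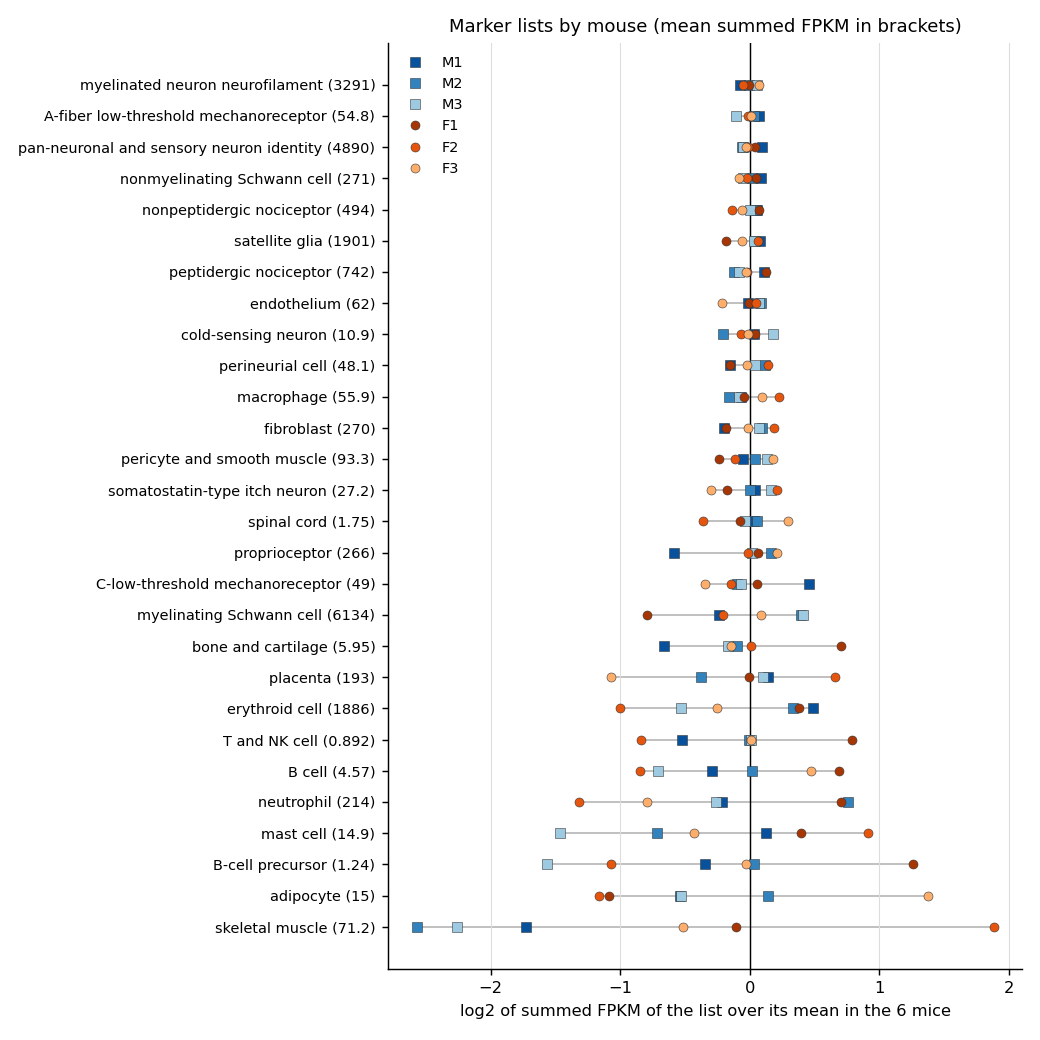
Summed FPKM of 28 marker lists in each mouse as the log2 ratio to the list's mean over the 6 mice, ordered by CV, with the mean summed FPKM in brackets. Pan-neuronal, satellite glial and endothelial lists lie near 0, and the skeletal muscle, adipocyte, mast cell, neutrophil and erythroid lists are among those that spread over more than 1 log2 unit.

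The sum of satellite glial genes varied less between mice than that of myelin genes. The 15 satellite glial genes summed to 1901 ± 126 FPKM (CV 6.65%, and 3.71% without F1, the lowest mouse), of which *Apoe* made up 61.0%. The median CV of the 15 genes was 13.95%, above the 7.64% over all genes. *S100b*, a calcium-binding protein, stood at 308 ± 16.3 FPKM and *Sox10*, the transcription factor of the glial lineage, at 38.6 ± 2.23 FPKM. *Fabp7*, a fatty acid-binding protein of satellite glia, read 107, 66.7, 67.5, 84.2, 59.2 and 50.5 FPKM. The potassium channel gene *Kcnj10*, which marks satellite glia, stood at 15.4 ± 0.953 FPKM. *Gja1*, a gap junction protein, stood at 3.495 ± 0.531 FPKM and *Slc1a3*, a glutamate transporter, at 1.69 ± 0.279 FPKM.

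The 14 genes of myelinating Schwann cells summed to 5208, 8059, 8163, 3538, 5325 and 6511 FPKM, a CV of 29.35%. All 14 were at their lowest in F1. *Pmp22* read 1214, 1887, 1973, 842, 1322 and 1596 FPKM and *Mbp*, myelin basic protein, 418, 624, 625, 315, 402 and 516 FPKM. M2 and M3 were the highest mice for both of these genes and F1 the lowest. *Prx*, periaxin, ranged from 111 to 216 FPKM, and *Egr2*, the transcription factor of myelinating Schwann cells, from 3.88 in F1 to 10.3 FPKM in M3. The median CV over the 14 genes was 27.55%, against 7.64% over all genes. The sum of genes listed for nonmyelinating Schwann cells was steadier, at 271 ± 11.8 FPKM (CV 4.36%). *Ngfr*, the p75 receptor, stood at 149.6 ± 7.38 FPKM and *L1cam*, an adhesion molecule, at 55.8 ± 1.04 FPKM. *Ngfr* made up 55.2% of that sum and is also counted among the growth factor receptors below. The steadiness of the sum therefore cannot be assigned to these cells alone. *Gfap*, the glial intermediate filament, was low, at 1.05 to 4.03 FPKM.

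Vascular and connective tissue genes were low to moderate. The 12 endothelial genes summed to 62.0 ± 4.52 FPKM and were led by *Ly6c1* at 11.8 ± 1.51 FPKM and *Cldn5*, the tight junction protein, at 11.4 ± 2.10 FPKM. F3 was the lowest mouse for 7 of the 12, and its sum of 53.5 FPKM lay below the 61.4 to 65.8 FPKM of the other 5. The genes of pericytes and smooth muscle summed to 93.3 ± 10.1 FPKM, of which *Acta2*, smooth muscle actin, gave 37.5 ± 6.30 FPKM. Fibroblast genes summed to 270.1 ± 29.1 FPKM, led by *Dcn*, decorin, at 90.7 ± 10.1 FPKM and *Col1a1*, collagen, at 54.2 ± 6.05 FPKM. The 4 perineurial genes summed to 48.1 ± 4.25 FPKM, of which *Slc2a1*, a glucose transporter, gave 22.0 ± 1.82 FPKM and *Cldn1*, a tight junction protein, 4.90 ± 1.06 FPKM.

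Among immune genes, those of resident macrophages gave a low sum and those of neutrophils a higher sum that varied widely. The 14 macrophage genes summed to 55.9 ± 5.66 FPKM (CV 10.1%, and 6.58% without F2; median CV of single genes 12.6%), with the complement genes *C1qa* at 13.3 ± 1.79 FPKM and *C1qb* at 9.12 ± 1.07 FPKM and the growth factor receptor *Csf1r* at 5.71 ± 0.280 FPKM. *Cd163*, a scavenger receptor, had a BCV just over 0.5 and ranged from 0.67 FPKM in M1 and F1 to 2.35 FPKM in F3. The 12 neutrophil genes summed to 185, 363, 178, 348, 85.8 and 124 FPKM, 4.23 times higher in M2 than in F2, and 8 of the 12 had a BCV over 0.5, against 1.19% of all genes. *S100a9*, an abundant cytosolic protein of neutrophils, read 82.4, 149, 81.5, 146, 38.9 and 51.7 FPKM. *Ngp*, a granule protein of neutrophil precursors, read 37.6, 76.4, 29.3, 69.0, 17.6 and 22.8 FPKM. *Elane* and *Mpo*, which are transcribed early in the marrow, ranged from 0.44 to 5.13 and from 0.51 to 3.21 FPKM. F2 was the lowest mouse for 11 of the 12, the exception being *Cxcr2*, which was lowest in F3.

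Blood and marrow genes moved partly in parallel with the neutrophil genes. The 7 erythroid genes summed to 2642, 2384, 1309, 2455, 944 and 1583 FPKM, and all 7 were lowest in F2. *Hba-a1*, an alpha-globin gene, read 895, 840.2, 476, 905, 342 and 557 FPKM, although its reads may be split with the near copy *Hba-a2*, which averaged 398 ± 132 FPKM. The 6 B cell genes summed to 4.565 ± 1.94 FPKM and the 5 genes of B-cell precursors to 1.24 ± 0.912 FPKM, with F1 the highest mouse in both at 7.35 and 2.97 FPKM. The 8 T and NK cell genes summed to 0.892 ± 0.360 FPKM, with no member at 1 FPKM and *Cd8a* listed at 0 in 5 of the 6 mice. Mast cell genes summed to 16.2, 9.05, 5.40, 19.5, 27.9 and 11.05 FPKM, led by the protease *Mcpt4* at 5.72 ± 3.09 FPKM. All 4 mast cell genes at 1 FPKM or more were highest in F2 and lowest in M3, an order unlike that of the neutrophil and erythroid genes, for which F2 was lowest. Whether blood left in the vessels or marrow of the vertebrae differed between these mice was not tested.

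Skeletal muscle and adipocyte genes had the largest CVs of the lists summed in FPKM. The 12 skeletal muscle genes summed to 21.5, 12.0, 14.9, 66.4, 263 and 50.0 FPKM, a CV of 135%. *Acta1*, skeletal actin, read 7.06, 4.69, 4.65, 31.2, 105 and 18.1 FPKM, and *Ckm*, muscle creatine kinase, read 2.90, 1.39, 1.95, 7.46, 34.0 and 6.49 FPKM. All 8 muscle genes at 1 FPKM or more were highest in F2 and all 8 had a BCV over 0.5, against 1.19% of all genes. The CV of the sum without F2 was still 72.8%. The 6 adipocyte genes summed to 10.35, 16.6, 10.4, 7.07, 6.69 and 39.0 FPKM, with *Cfd*, adipsin, at 22.9 FPKM in F3 and 3.47 to 9.52 FPKM elsewhere. Without F3 the CV of the adipocyte list was 38.8% in place of 81.7%. The 5 bone and cartilage genes summed to 3.77, 5.56, 5.29, 9.69, 6.01 and 5.39 FPKM, with *Bglap*, osteocalcin, at 3.60 FPKM in F1 and 0.21 to 2.04 FPKM in the others.

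Placental genes were present in all 6 mice of both sexes. The 6 genes, whose transcripts belong to trophoblast cells, summed to 213, 149, 207, 193, 304 and 91.8 FPKM. *Prl3b1*, a placental lactogen (chromosome 13, 27241847 to 27249683), read 104, 74.4, 104, 99.1, 147 and 44.75 FPKM on 3766 to 13670 counts, which placed it 355th of all genes. *Tpbpa*, a marker of the spongiotrophoblast, read 73.1, 47.7, 65.5, 58.0, 101 and 31.9 FPKM. All 6 were highest in F2 and 5 were lowest in F3, the exception being *Psg23*, which was lowest in M2. Chosen after its values were seen, *Gzmd*, a granzyme, read 7.59, 8.89, 7.53, 7.47, 7.08 and 1.43 FPKM and was likewise lowest in F3. *Afp*, alpha-fetoprotein, which was also chosen after its values were seen, read 24.3, 29.4, 28.1, 50.6, 16.3 and 14.2 FPKM and was highest in F1. The median CV of the 6 placental genes was 38.55%, against 7.64% over all genes. The source of these transcripts was not tested.

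Sodium channel genes varied little in sum across the 6 mice. Over 9 alpha subunits of voltage-gated sodium channels, which carry the action potential, the sum was 186 ± 8.40 FPKM (CV 4.53%). *Scn10a* (Nav1.8; chromosome 9, 119608456 to 119719322) was highest at 81.6, 89.8, 77.3, 86.3, 82.8 and 77.4 FPKM. *Scn11a* (Nav1.9) followed at 59.8, 67.7, 58.1, 61.3, 58.2 and 56.1 FPKM, and *Scn9a* (Nav1.7) at 19.65, 18.8, 18.7, 19.6, 18.6 and 19.1 FPKM. The levels of these 3 did not overlap in any mouse. *Scn1a* (Nav1.1) at 10.7 ± 0.819 FPKM and *Scn8a* (Nav1.6) at 10.1 ± 0.817 FPKM did overlap. *Scn2a* at 0.535 ± 0.115 FPKM and *Scn3a* at 0.348 ± 0.0279 FPKM were under 1 FPKM. Among the beta subunits, *Scn4b* stood at 57.9 ± 3.65 FPKM, *Scn3b* at 15.2 ± 1.02 FPKM and *Scn2b* at 6.49 ± 0.585 FPKM, with no overlap between any of these 3.

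TRP channels detect heat, cold and irritants, and 11 of the 17 listed were at 1 FPKM or more. After *Trpv1* at 28.6 ± 5.39 FPKM came *Trpv2* at 17.0 ± 0.828 FPKM. *Trpa1*, the receptor of mustard oil, read 10.04, 11.28, 9.63, 10.57, 9.05 and 9.78 FPKM, and its range overlapped that of *Trpm8*. *Trpv4* at 0.515 ± 0.110 FPKM and *Trpv3* at 0.103 ± 0.0294 FPKM were under 1 FPKM. The sum of the mechanically gated group had a CV of 2.34%. It was led by *Tmem63b* at 35.1 ± 0.991 FPKM, with *Tmem63c* at 19.3 ± 0.851 FPKM and *Piezo2* at 19.15 ± 1.15 FPKM overlapping, while *Piezo1* stood at 1.81 ± 0.0888 FPKM and *Tmc1* reached at most 0.14 FPKM and *Tmc2* at most 0.12 FPKM.

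**Figure D3:**
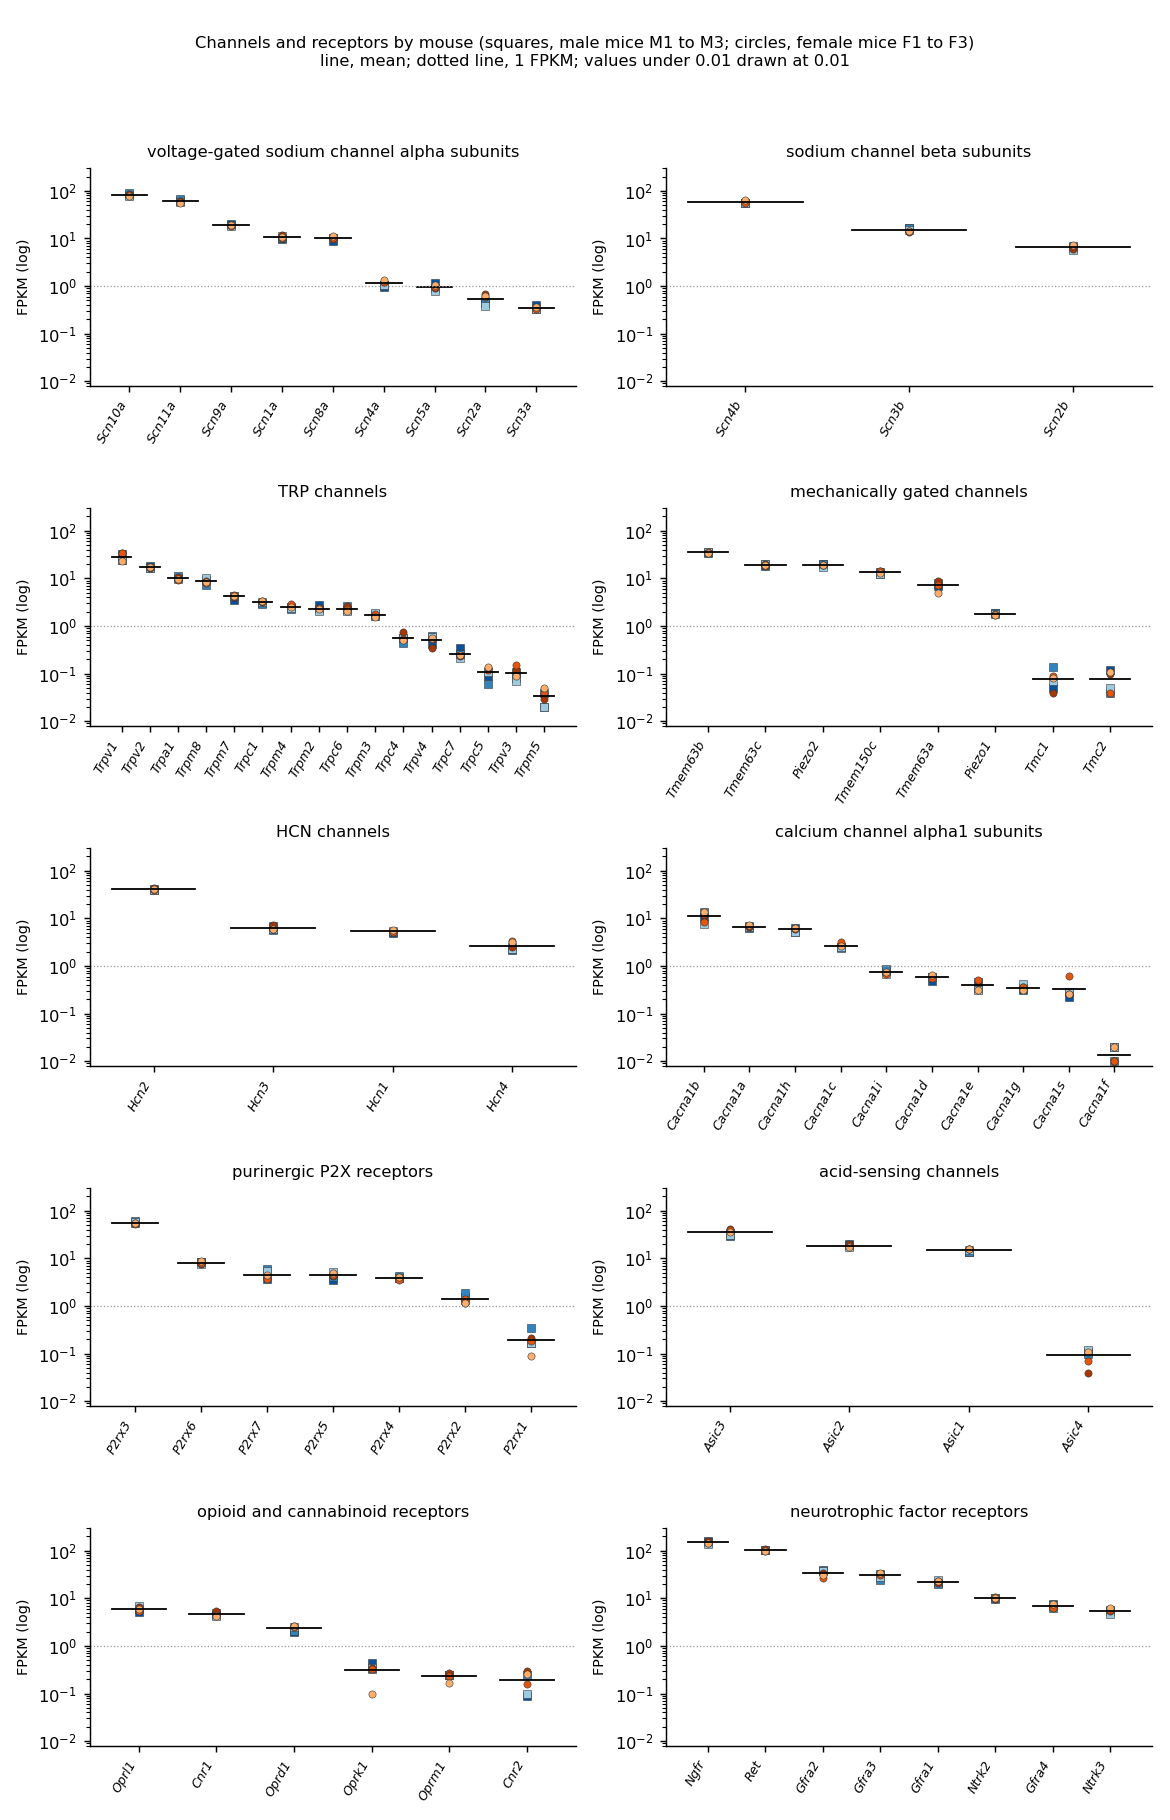
FPKM (log axis) of 10 families of channels and receptors, with 1 point per mouse (squares, males; circles, females), a line at the mean and a dotted line at 1 FPKM. The 3 sodium channel genes Scn10a, Scn11a and Scn9a lie apart with no overlap, while Oprm1 and Oprk1 lie below the dotted line.

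The 32 genes of the potassium channel list, which sets resting potential and firing and also holds *Hcn2* and the glial *Kcnj10*, had the smallest CV of any list sum in FPKM, 1.69% around 447 FPKM, although on TMM-scaled CPM the CV of neurotrophic factor receptors was smaller, at 1.97% against 2.35%. Of the 32, 29 were at 1 FPKM or more. The A-type channel *Kcnd1* led at 44.3 ± 2.37 FPKM, followed by *Hcn2*, a pacemaker channel, at 40.8 ± 1.34 FPKM, *Kcnk1* at 38.8 ± 3.42 FPKM and the auxiliary subunit *Kcnip4* at 30.7 ± 2.39 FPKM. Single genes moved more than the sum, with a median CV of 8.83% against 7.64% over all genes. The list was also the longest, and no member made up more than 9.9% of its sum, so moves of single genes weigh little in it. *Kcnk4* (TRAAK) read 2.18, 2.50, 2.97, 2.92, 4.87 and 3.95 FPKM. *Kcns1*, a modulatory subunit of voltage-gated channels, ranged from 21.8 FPKM in F2 to 30.4 FPKM in F3.

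Among calcium channels, *Cacna1b* (Cav2.2), the N-type channel of synaptic terminals, was the highest alpha1 subunit and also the least steady of those at 1 FPKM or more, at 10.8, 13.9, 7.78, 11.6, 8.30 and 13.6 FPKM. *Cacna1a* (Cav2.1) stood at 6.75 ± 0.3645 FPKM and *Cacna1h* (Cav3.2), the T-type channel of sensory neurons, at 5.85 ± 0.499 FPKM. Of the auxiliary subunits *Cacnb3* led at 66.7 ± 3.43 FPKM, and *Cacna2d1*, the binding site of gabapentin, stood at 12.9 ± 0.778 FPKM. The HCN list summed to 55.2 ± 1.99 FPKM, 74.0% of it *Hcn2*. The P2X receptors were led by *P2rx3*, at 71.0% of the family's sum, with *P2rx2* at 1.405 ± 0.275 FPKM. *Asic3* read 29.2, 34.7, 30.3, 41.6, 38.95 and 35.8 FPKM, ahead of *Asic2* at 18.5 ± 1.27 FPKM and *Asic1* at 14.8 ± 1.17 FPKM, which overlapped neither with *Asic3* nor with each other. *Htr3a*, the serotonin-gated channel, read 68.5, 47.45, 42.55, 55.8, 56.6 and 44.4 FPKM.

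The 6 opioid and cannabinoid receptor genes were low in the whole ganglion. *Oprl1*, the nociceptin receptor, was the highest of the opioid and cannabinoid receptors at 5.99 ± 0.636 FPKM, and *Cnr1* stood at 4.61 ± 0.476 FPKM. *Oprd1*, the delta receptor, followed at 2.34 ± 0.301 FPKM. *Oprm1*, the mu receptor of morphine, stood at 0.233 ± 0.0339 FPKM and *Oprk1*, the kappa receptor, at 0.312 ± 0.113 FPKM. The range of *Oprm1*, 0.17 to 0.27 FPKM, lay within that of *Oprk1*, 0.10 to 0.44 FPKM. In contrast, GABA and glutamate receptors were broad and steady, with 15 of 17 genes at 1 FPKM or more and a sum of 189.6 ± 4.68 FPKM. The GABA-B subunits *Gabbr1* at 47.9 ± 0.916 FPKM and *Gabbr2* at 26.3 ± 0.452 FPKM and the kainate receptor *Grik1* at 34.7 ± 2.16 FPKM led that list. Among adrenergic receptors *Adra2c* was highest at 6.78 ± 0.955 FPKM.

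Receptors of growth factors were the most abundant receptor group, with a sum of 464 ± 12.7 FPKM over 9 genes and a CV of 2.74%. *Gfra2*, the neurturin receptor, stood at 34.15 ± 4.52 FPKM, *Gfra3*, the artemin receptor, at 30.4 ± 3.72 FPKM and *Ntrk3* (TrkC) at 5.49 ± 0.525 FPKM. Cytokine receptors summed to 135 ± 4.29 FPKM, led by the shared subunit *Il6st* (gp130) at 34.2 ± 1.96 FPKM and *Lifr* at 28.2 ± 1.89 FPKM. *Il4ra* was the least steady of these at 1 FPKM or more, at 6.29, 2.69, 2.70, 2.80, 4.77 and 4.38 FPKM. The prostanoid, bradykinin and protease receptors summed to 71.7 ± 5.20 FPKM, with *F2rl2* at 26.2 ± 3.62 FPKM and *Ptgir*, the prostacyclin receptor, at 14.1 ± 0.761 FPKM. Receptors of neuropeptides summed to 25.03 ± 2.56 FPKM, among which *Npy1r* stood at 4.93 ± 1.07 FPKM and *Tacr1*, the substance P receptor, at 0.0500 ± 0.0210 FPKM. Of the receptors tied to resolving lipid mediators, 4 of 8 were at 1 FPKM or more, and *Gpr37l1* gave 87.5% of the sum at 49.1, 48.0, 48.4, 39.4, 43.7 and 42.3 FPKM. *Gpr37*, a receptor examined in the study, stood at 2.45 ± 0.198 FPKM, and *Fpr2* at 0.74 to 2.03 FPKM was highest in M2 and F1, the mice with the highest neutrophil sums.

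Neuropeptide genes ranged from *Calca* down to *Vip* at 0.0167 FPKM, and 12 of 18 were at 1 FPKM or more. *Nmb*, neuromedin B, stood at 98.1 ± 8.53 FPKM, and *Vgf* at 28.1 ± 3.39 FPKM. The peptides at middle levels were less steady, and several were highest in M1. *Cartpt* read 27.3, 9.35, 9.49, 17.05, 14.5 and 11.8 FPKM, *Gal*, galanin, read 20.9, 12.5, 9.25, 14.3, 12.4 and 10.7 FPKM, and *Penk*, proenkephalin, read 11.4, 3.96, 6.65, 3.95, 6.11 and 4.61 FPKM. M1 was the highest mouse for 6 of the 12 peptide genes at 1 FPKM or more, without a count over all genes to set beside it.

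Signs of stress, hormone state and inflammation differed in size. The interferon-response list summed to 26.4 ± 1.03 FPKM (CV 3.92%) and the immediate early genes to 77.2 ± 2.96 FPKM (CV 3.83%). Their single genes varied more, with median CVs of 13.1% and 14.8% against 7.64% over all genes. *Jun* made up 44.0% of the immediate early sum, with *Fos* at 2.665 ± 0.428 FPKM and the injury-response factor *Atf3* at 5.44 ± 0.482 FPKM. The 6 glucocorticoid-responsive genes summed to 46.9, 71.4, 82.2, 63.1, 109 and 91.4 FPKM (CV 28.2%), and 5 of the 6 were highest in F2. *Tsc22d3* (GILZ) read 26.35, 39.4, 45.6, 37.4, 60.5 and 48.2 FPKM and *Per1*, which is also a clock gene, 4.83, 7.25, 9.02, 6.97, 11.2 and 9.06 FPKM. The sum of the clock list had a CV of 6.50%, while the median CV of its single genes was 13.2%. Of its 10 genes at 1 FPKM or more, 7 were highest in F2, although how many of all genes were highest in F2 was not counted. Heat shock genes summed to 589.6 ± 46.5 FPKM, 56.4% of it *Hsp90aa1*, and the median CV of single genes was 17.3%. Among them *Hspa1b*, an inducible chaperone, ranged from 9.07 FPKM in M1 to 30.0 FPKM in F1. The times of day at which tissue was taken are not given in the sources used here.

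The genes that varied most between mice fell into a few kinds. Among the 15 with the highest BCV were the sex-linked *Xist*, *Ddx3y*, *Eif2s3y* and *Uty*, the muscle genes *Myh4*, *Myh1*, *Atp2a1* and *Mb*, 3 processed pseudogenes, and 4 protein-coding genes that separated the mice into a high and a low set. *Prss22*, a serine protease, read 4.18, 0.120, 0.150, 4.93, 0.240 and 0.120 FPKM, high in M1 and F1. *H2-Ea*, a class II MHC chain whose gene is known to be intact in some mouse strains and disrupted in others, read 8.83, 0.410, 6.74, 10.7, 1.02 and 0.290 FPKM. *Ceacam10* (chromosome 7, 24777206 to 24784656) read 66.6, 2.61, 4.40, 5.50, 81.9 and 5.76 FPKM, high in M1 and F2. *Gm45717* read 0.880, 16.5, 0.770, 0.680, 16.8 and 18.2 FPKM, high in M2, F2 and F3.

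The same pairing of M1 and F2 as for *Ceacam10* was found on chromosome 2. Of 8 genes whose 2 highest mice were each more than 3 times above the other 4, 3 had M1 and F2 as the high pair. *Cwc22*, a splicing factor (77881159 to 77946375), read 13.2, 2.03, 2.25, 2.41, 22.9 and 2.17 FPKM, and *Hnrnpa3*, an RNA-binding protein at 75659261 to 75669407 on the same chromosome, read 8.36, 1.88, 1.17, 0.900, 9.54 and 0.850 FPKM. These 2 genes, *Chrna6*, *Chrnb3*, *Mrgpra2b* and, below, *Rps2*, *Rps2-ps13*, *Rps3a1*, *Rps3a2*, *Actg1*, *Fabp5* and *Hmgb1* were chosen after their values were seen, as were *Gm10222* and *Gm28439* above. *Chrna6* and *Chrnb3*, subunits of nicotinic acetylcholine receptors that lie next to each other on chromosome 8, shared their highest pair of mice and their lowest mouse. *Chrna6* read 18.6, 46.8, 23.85, 43.5, 9.33 and 8.83 FPKM, and *Chrnb3* read 1.87, 4.63, 2.53, 6.32, 1.25 and 1.08 FPKM. M2 and F1 were the 2 highest mice and F3 the lowest for both. *Mrgpra2b* read 4.09, 0.95, 0.50, 7.29, 0.39 and 2.16 FPKM. It lies on chromosome 7, as do *Mrgprb4* and *Mrgprb5*, and its 3 highest mice, M1, F1 and F3, were the same as those of *Mrgprb4*.

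**Figure D4:**
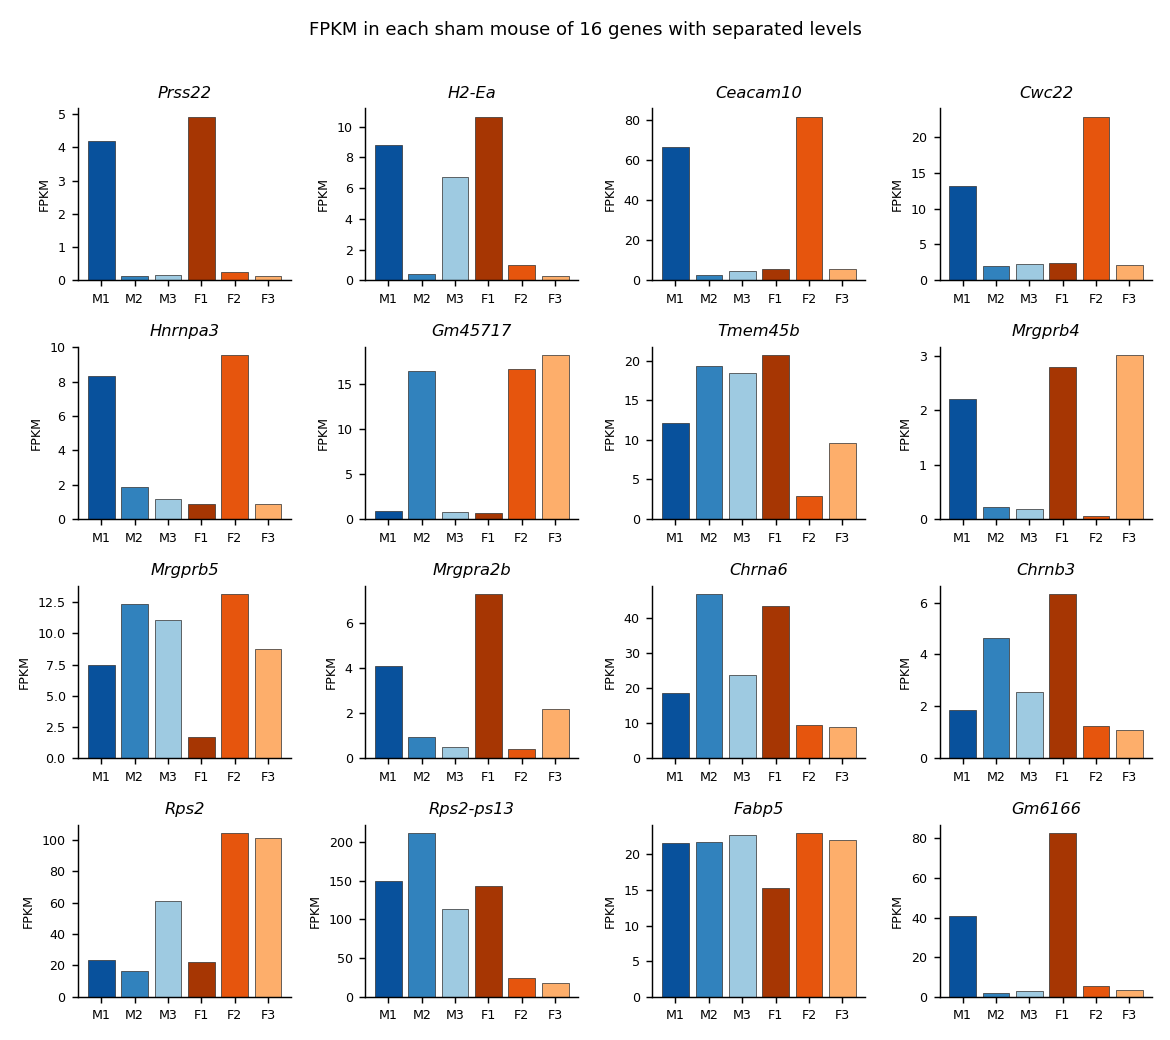
FPKM in each of the 6 sham mice of 16 genes with separated levels (bars start at 0; blue, males; orange, females). Ceacam10, Cwc22 and Hnrnpa3 are high in M1 and F2, Chrna6 and Chrnb3 in M2 and F1, and Rps2 is highest in F2 and F3, where its copy Rps2-ps13 is lowest.

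Pseudogenes made up a larger share of the variable genes than of all genes. Of the 160 genes with a BCV over 0.5, 50 (31.25%) carried a pseudogene annotation, against 798 of the 13405 genes (5.95%). *Gm6166* read 40.6, 1.94, 2.84, 82.6, 5.36 and 3.47 FPKM, while the fatty acid-binding protein gene it copies, *Fabp5*, read 21.6, 21.7, 22.7, 15.3, 23.0 and 22.1 FPKM. The parent was lowest in F1, where the copy was highest. *Rps2*, a ribosomal protein gene chosen after its values were seen, read 23.5, 16.8, 60.95, 22.2, 104 and 101 FPKM, and its copy *Rps2-ps13* read 149, 211, 113, 143, 23.7 and 17.6 FPKM. The copy was lowest and the parent highest in F2 and F3, and M2 had the highest level of the copy and the lowest of the parent. The sum of both ranged from 119 to 228 FPKM, but it depends on how reads are split, since FPKM is scaled by transcript length. In M1, 3319 counts gave *Rps2* 23.5 FPKM, whereas 10154 counts gave the copy 149 FPKM. The sequences of parent and copy are given here because they differ at so few bases. The windows below hold the first 120 aligned bases of the GENCODE transcripts, and capitals mark the bases that differ between parent and copy.

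Rps2: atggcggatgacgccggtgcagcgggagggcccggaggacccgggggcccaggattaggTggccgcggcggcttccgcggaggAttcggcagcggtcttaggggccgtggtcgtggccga
Rps2-ps13: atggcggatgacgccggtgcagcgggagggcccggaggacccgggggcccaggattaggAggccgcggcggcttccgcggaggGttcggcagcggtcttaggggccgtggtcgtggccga
Fabp5: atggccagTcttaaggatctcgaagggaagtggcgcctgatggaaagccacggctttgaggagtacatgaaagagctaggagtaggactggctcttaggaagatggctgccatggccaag
Gm6166: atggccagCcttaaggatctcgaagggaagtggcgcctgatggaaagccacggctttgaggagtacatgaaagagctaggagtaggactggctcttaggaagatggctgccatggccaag

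Over their whole alignments, *Rps2-ps13* (chromosome X, 52898588 to 52899469) differed from *Rps2* (chromosome 17) at 7 of 882 bases and *Gm6166* (chromosome 9, 57483963 to 57484371) from *Fabp5* (chromosome 3) at 5 of 407 bases. *Rps3a2* likewise differed from *Rps3a1* at 4 of 792 bases. The copy *Rps3a2* read 5.37, 59.3, 3.87, 61.9, 57.9 and 51.7 FPKM, and the parent *Rps3a1* read 208, 138, 203, 151, 134 and 117 FPKM. *Gm8399*, another of the 15 most variable genes, differed from the actin gene *Actg1* at 8 of 1117 bases and *Hmgb1-ps7* from *Hmgb1* at 9 of 648 bases. Levels of such parents and copies are uncertain, since reads can be assigned to either.

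The 15 least variable genes by BCV at 1 FPKM or more had BCVs of 0.0587 to 0.06, and the order by CV was not the same. *Add1*, adducin of the membrane skeleton, read 42.9, 42.5, 42.9, 42.8, 43.0 and 42.0 FPKM, a CV of 0.88%. *Spock2*, a proteoglycan, read 328, 333, 326, 335, 327 and 330.3 FPKM, a CV of 1.09%. *Hsp90ab1*, a constitutive chaperone, had the lowest BCV, at 782 ± 16.6 FPKM and a CV of 2.12%. Outside the 15, *L1cam* had a CV of 1.87% and *Gabbr1* of 1.91%. *Atp5b*, a subunit of the mitochondrial ATP synthase that is encoded in the nucleus, stood at 256 ± 3.50 FPKM. Of the 13405 genes, 8656 (64.6%) had a CV under 10% between these outbred mice, and the CV of 13278 (99.05%) was above the counting error expected from the mean count.

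**Figure D5:**
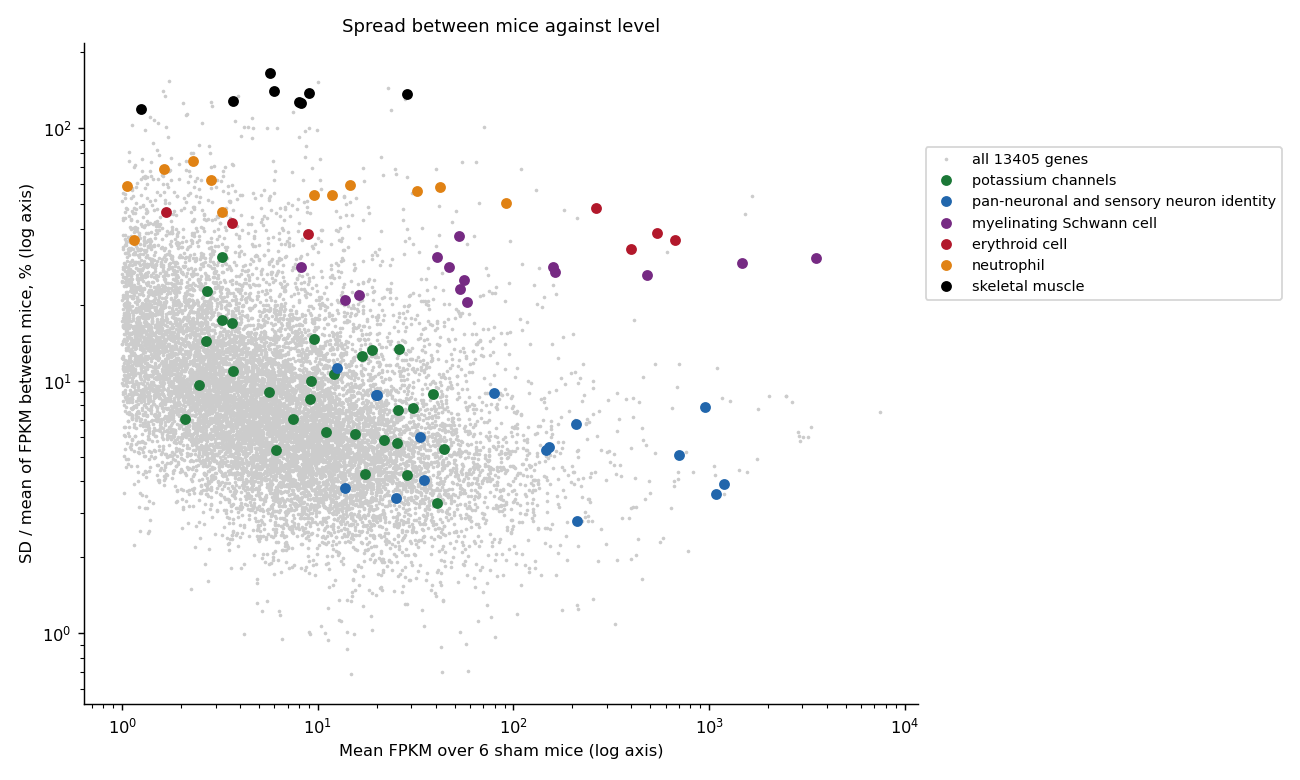
CV of FPKM between the 6 mice (%, log axis) against mean FPKM (log axis) for 13405 genes (grey), with members of 6 lists in colour. Muscle genes lie from 120% to 166%, myelin genes from 20.4% to 37.3% and pan-neuronal genes from 2.78% to 11.3%.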

How the data were processed

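RNA was measured in L3–L5 DRG in 18 samples, of which the 6 labelled as sham were used. The authors deposited counts of reads per gene without normalization, and FPKM values for the same genes, which the authors normalized for transcript length and mapped fragments. The submitters' processing notes name cutadapt 1.10, FastQC, HISAT2, StringTie and mm10. The counting program is not given in the sources used here. Levels were taken from FPKM and spread from the CV of FPKM. BCVs were fitted to the counts in R 4.3.3 with edgeR 4.0.16 (filterByExpr with a minimum count of 10 and a minimum total of 15, TMM, tagwise dispersion with robust estimation), which kept 18594 genes. DESeq2 1.42.0 served as an alternative. Depth was 69515456 to 80335243 counts per mouse, and intervals of single values were not computed since mice are the replicates. No treatment groups were compared, the sexes were set side by side only to check the labels, and no p-value was computed.

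Genes named were the 20 most abundant, the 15 most and 15 least variable at 1 FPKM or more, and members of 55 lists of cell types, molecules and checks, of which 494 of 495 symbols were found. The members and lists were chosen with earlier results of these data known, and genes outside that rule are named as chosen after their values were seen. Some genes that this rule names are not reported here, singly or in figures, but stay in list sums and counts. Sequences came from GENCODE vM21 transcripts (GRCm38).

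The BCV fit was tested on simulated data, and it did not return its inputs closely. In a first simulation, with one common spread for most genes, the typical spread came back too high. The simulation was then replaced by one with spreads scattered around the trend, and the share of highly variable genes that had to be recovered was lowered after the first requirement was missed. In the second simulation typical genes were still returned somewhat too variable and the most variable genes too steady. BCVs are therefore pulled toward the trend, the number over 0.5 is likely an undercount, and the CV of FPKM is the more direct measure.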

Additional observations from a re-analysis of the deposited data

Results flagged for a closer look

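A value stood apart from the other 5 mice by Dixon's 95% criterion in 5 of 55 summed lists and in 20 of 196 named genes, where chance alone marks about 1 in 20 groups. Over all 13405 genes at 1 FPKM or more that passed the filter, 695 (5.18%) did so. The mice shared these unevenly, with 190 genes (1.417%) in M1, 139 in F3, 130 in F2, 107 in F1, 79 in M2 and 50 (0.373%) in M3. The named genes are not a neutral sample, since some were named because they vary most or after their values were seen, and 4 of the 20 are listed at 0 in the other 5 mice, which meets the criterion by construction. The proprioceptor list read 177.68 FPKM in M1, below the 263.6 to 307.51 FPKM of the others. The endothelium list read 53.52 FPKM in F3, below the 61.4 to 65.84 FPKM of the others. The B-cell precursor list read 2.97 FPKM in F1, above the 0.42 to 1.27 FPKM of the others. The skeletal muscle list read 262.69 FPKM in F2, above the 12.01 to 66.36 FPKM of the others. The adipocyte list read 38.96 FPKM in F3, above the 6.69 to 16.56 FPKM of the others.

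F1 stood below the other mice for *Egr2* at 3.88 FPKM, *Fabp5* at 15.32 FPKM and *Kcnj10* at 13.63 FPKM. F2 stood above the other mice for *Acta1* at 104.69 FPKM, *Atp2a1* at 40.57 FPKM, *Ckm* at 34.03 FPKM, *Myh1* at 4.05 FPKM, *Myh4* at 25 FPKM, *Psg23* at 14.47 FPKM and *Tacr1* at 0.09 FPKM. F3 stood above the other mice for *Cfd* at 22.94 FPKM. F3 stood below the other mice for *Atp5b* at 249.66 FPKM, *Gzmd* at 1.43 FPKM and *Oprk1* at 0.1 FPKM. M1 stood above the other mice for *Penk* at 11.39 FPKM and *Uchl1* at 1151.23 FPKM. For genes listed at 0 in the other 5 mice, single values were *Cd8a* at 0.02 FPKM, *Chat* at 0.01 FPKM, *Mnx1* at 0.02 FPKM and *Olig2* at 0.02 FPKM.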

How the results depend on the processing

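The share of the 20 most abundant genes was 18.4% of summed FPKM and moved with its definition, to 8.136% of counts, 12.981% without the mitochondrially encoded genes and 9.943% when their chromosome 1 copies were also left out, an alternative added after seeing the data. Leaving out each mouse gave 18.2% to 18.7%. The median BCV of 0.13649 became 0.36374 without the filter on low counts, and lay between 0.1086 (DESeq2) and 0.13713 under the other alternatives and between 0.13803 and 0.14516 when 1 mouse was left out. The number of genes with a BCV over 0.5 ranged from 146 to 209 against 160, and from 128 without F2 to 166 without M1. The number of detected genes was 15458 at 0.5 FPKM, 18681 with 10 counts in every mouse, and 13439 to 13487 with 1 mouse left out. The spread of a list moved by more than 1.5 times in 48 of 165 values on other scales (3 of 55 lists on summed TMM-scaled CPM, 20 on the SD of mean log2(FPKM + 0.1) and 25 on that of mean log2(FPKM + 1)) and in 17 of 330 values when 1 mouse was left out, the latter added after seeing the data. On CPM these were T and NK cells (26.0%), TRP channels (4.23%) and bone and cartilage (15.3%). Among the lists that moved on the log scales with 0.1 and 1 added, the heat shock list rose from 7.88% to 22.01% and 20.9%, the nonpeptidergic list rose to 13.3% and 8.56%, nonmyelinating Schwann cells to 11.3% and 8.63%, the C-low-threshold list fell to 13.29% and 9.70% and the adipocyte list to 54.1% and 35.1%. With 1 added, skeletal muscle fell to 64.6%, the proprioceptor list to 11.5% and sodium channel alpha subunits to 2.46%, and with 0.1 added the interferon list rose to 6.29%. Orders of lists by CV therefore hold for summed FPKM. Among lists for which this is not given above, the CV of the sum fell to 3.12% without F3 for endothelium, to 24.8% for T and NK cells, 42.2% for B-cell precursors, 16.3% for bone and cartilage, 2.17% for HCN channels and 4.41% for opioid and cannabinoid receptors without F1, to 6.03% for calcium channel alpha1 subunits and 1.96% for cytokine receptors without M3, and to 2.40% for adrenergic receptors without M1. No paired analysis was possible because a single group was described and no groups were compared. Because the BCV fit did not return simulated spreads closely, the median and the number over 0.5 are approximate.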
